A study of Mus musculus with 3 samples.

Results

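The transcripts of 10 genes that make microRNAs or carry out silencing by them were examined in YTHDF2 RNA immunoprecipitation sequencing (RIP-seq) of mouse embryonic stem cells (ESCs). The genes were Drosha, Dgcr8 and Dicer1 for microRNA production, Ago1, Ago2, Ago3 and Ago4 for the Argonaute proteins, and Tnrc6a, Tnrc6b and Tnrc6c for the GW182 proteins. They were taken by symbol from a table of 49997 genes, and all 10 were among the 19601 genes with enough counts to be tested. The series held 1 input library and 2 libraries from immunoprecipitation (IP) with an anti-YTHDF2 antibody. All 3 libraries came from cells of the E14 line treated for 24 h with doxycycline (Dox). This drug induces a Dux transgene in the ESCs of the study, which shifts them toward a state like that of the 2-cell (2C) embryo. No untreated library and no control IP was compared here, so the values describe how RNA was distributed between IP and input and not an effect of Dox. The labels describe an IP of extracted RNA, whereas the methods of the study describe an IP from cell lysate, and this difference could not be settled from the counts.

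A microRNA begins as a hairpin in a longer transcript. The Microprocessor, in which the nuclease DROSHA works with the RNA-binding protein DGCR8, cuts the hairpin out in the nucleus, and DICER1 trims it to a short duplex in the cytoplasm. An Argonaute protein takes up 1 strand, finds mRNAs that pair with it, and through a GW182 protein recruits the CCR4-NOT deadenylase. YTHDF2 is a reader of N6-methyladenosine (m6A) that also brings CCR4-NOT to its mRNAs, and ESCs lacking Dicer1 or Dgcr8 are known for a failure to leave the pluripotent state.

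YTHDF2 recognises m6A, which is mostly placed in short motifs of which GGACT, with U for T in RNA, is the best known, often near stop codons. The match nearest to the stop codon is therefore shown for the 4 members whose IP to input ratio lay farthest from 1, with 10 bases on each side, in the sense direction and with the motif in capitals (RefSeq transcripts on GRCm38.p6, the build also called mm10).
Dicer1, 3′ UTR, chr12:104691571-104691595, minus strand: tgaagcttccGGACTcacaggcggc
Tnrc6c, 3′ UTR, chr11:117761649-117761673, plus strand: agtgtgtgagGGACTtaactgtggg
Ago3, coding sequence, chr4:126350955-126350979, minus strand: aaatcatccaGGACTtggcctccat
Dgcr8, coding sequence, chr16:18278433-18278457, minus strand: aaaaaattcaGGACTtgggctgagc
In Dicer1 the window opens with the stop codon itself, and the centre of the motif lay 12 bases after the first base of that codon. The nearest match lay 812 bases after the stop codon in Tnrc6c, 656 bases before it in Ago3 and 942 bases before it in Dgcr8. Dicer1 was the only member with a match within 50 bases of the stop codon, a distance at which 14.5% of the 15011 tested genes with a curated coding transcript had one. These are matches of letters in the transcript, searched on the sense strand only, and methylation was not measured in these libraries.

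The comparison of IP with input asked which transcripts came down with YTHDF2. It used edgeR's quasi-likelihood test, adjusted by Benjamini-Hochberg over all 19601 genes, and a call required both a difference of more than 2-fold and an adjusted p below 0.05. Of the 10 members, 0 were enriched, against 15.1% of all tested genes, and 1, Ago3, was depleted, against 13.1%. When the fold threshold was dropped, 3 members were higher in IP (Tnrc6c, Dicer1 and Drosha), against 28.5% of all tested genes, and 4 were lower (Ago1, Ago3, Tnrc6b and Dgcr8), against 29.0%. The remaining 3 (Ago2, Ago4 and Tnrc6a) did not pass. At an unadjusted p under 0.05 these counts were the same, at 3 higher of 7 in all, and DESeq2 also gave 0 enriched members. The count of enriched members was 1 under total count scaling, without the filter and with the GC or length trend removed. It was 2 under per-length scaling. That of depleted members was 0 in each of these settings except that without the filter, and also under a fixed dispersion of 0.1. Among all tested genes, 3316 were enriched and 2183 depleted under total count scaling, and 3552 and 2039 under per-length scaling. Without the filter they were 2758 and 2219 of 27890 genes. They were 2630 and 2285 of 19554 with the GC trend removed, and 2859 and 2691 with the length trend removed. Without IP replicate 1, which leaves no test, Tnrc6c was at 1.01 and Ago3 at −0.99. The median log2 fold change was 0.10 for the members and 0.0063 for all tested genes, and the median absolute value was 0.31 and 0.76, respectively. Each member lay on the same side of the input in both IP libraries, and the IP libraries differed by at most 0.18 on the log2 scale. The input had no replicate and nothing states that the IP libraries came from separate cultures. The p-values rest only on the spread between these 2 IP libraries, which the test pools in part over all tested genes.

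**Figure D1:**
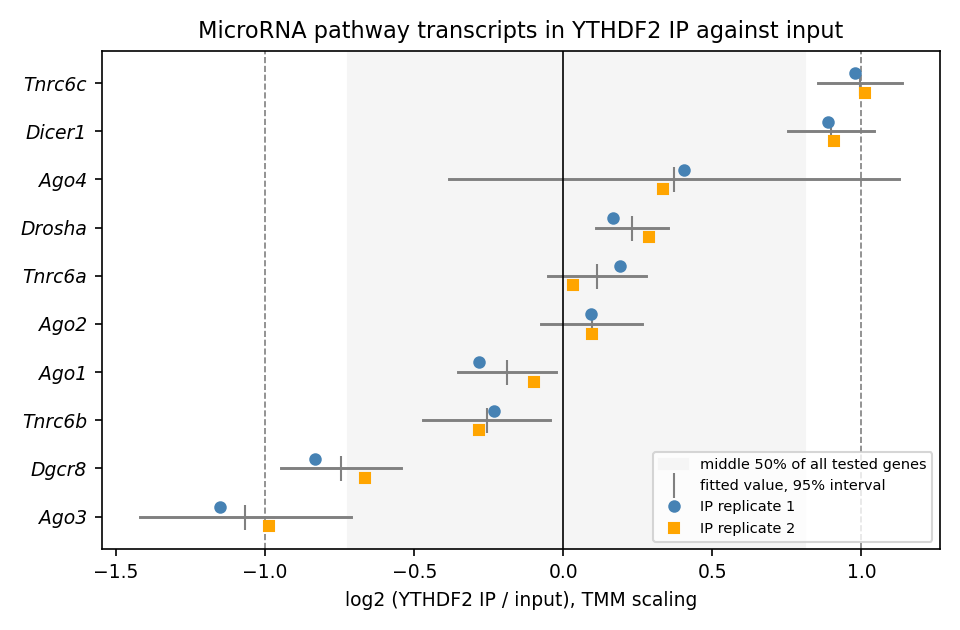
Log2 ratio of each YTHDF2 IP library to the input (circles, IP replicate 1; squares, IP replicate 2) for the 10 members, with the fitted value and its 95% interval as a tick and a bar. The grey band holds the middle 50% of all 19601 tested genes and the dashed lines mark 2-fold; Tnrc6c at 1.00 and Dicer1 at 0.90 lie at the top and Ago3 at −1.07 at the bottom.

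Among the nucleases and their partner, Dicer1 was higher in IP, Drosha was slightly higher and Dgcr8 was lower. Dicer1 (chromosome 12, 104687740 to 104751968, minus strand) was counted 2903 times in the input, against 5487 in the first and 5641 in the second IP library. Both IP libraries were well above the input and close to each other. The fitted increase was 1.86-fold, or 0.90 ± 0.071 (SE, 1 input and 2 IP libraries) in log2 units (edgeR, adjusted p = 8.02e-14). It stood at the 77.1 percentile of all tested genes, below the 2-fold threshold, but was called enriched with the GC trend removed (1.03) and under per-length scaling (1.05).

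Drosha (chromosome 15, 12824804 to 12935291, plus strand) was counted 9156 times in the input, against 10501 and 11582 in the first and second IP library. Both IP libraries were above the input, but by little. The fitted log2 ratio was 0.23 ± 0.059 (SE; edgeR, adjusted p = 0.00106). Drosha had 36 annotated exons in 4716 bases of merged exon, a density at the 97.0 percentile of tested genes, and with the trend of the ratio on exon density removed its value was 0.69. With the trend on GC removed it was 0.043 and no longer passed (edgeR, adjusted p = 0.565).

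Dgcr8 (chromosome 16, 18253948 to 18289251, minus strand) was counted 2359 times in the input, against 1351 and 1542 in the first and second IP library. It was thus lower in both IP libraries, in contrast to its partner Drosha. The decrease was 1.68-fold, or −0.75 ± 0.099 (SE) in log2 units (edgeR, adjusted p = 2.92e-08). Exons of Trmt2a on the opposite strand cover 825 bases, or 9.39%, of the exonic bases of Dgcr8. Counting ignored strand and left out reads over exons of 2 genes, so reads in these bases entered neither count. Trmt2a itself was counted 1849 times in the input, against 2353 and 2324 in the first and second IP library, the direction opposite to Dgcr8. Dgcr8 is also annotated on 3 sequences of the build, and how reads that match more than 1 of them were treated was not tested, which bears on its counts, its level and its ratio to Drosha.

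The ratio of Drosha to Dgcr8 inside a library does not depend on scaling between libraries. On counts it was 3.88 in the input, against 7.77 and 7.51 in IP replicates 1 and 2. Per base of merged exon it was 7.23 in the input, against 14.5 and 14.0 in IP. Drosha was the more abundant in each library, and the ratio was 1.97-fold higher in IP. The ratio of Dicer1 to Drosha was 0.135 in the input and 0.223 and 0.208 in IP, a 1.59-fold increase. With 1 input library these ratios had no test.

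A coding exon of Dgcr8 also holds the hairpin of miR-1306, of 79 bases (chr16:18284239-18284317, minus strand), and the 3′ UTR exon of Tnrc6b holds that of miR-5113, of 82 bases (chr15:80940039-80940120, plus strand). They are shown because these members are microRNA hosts as well as parts of the machinery. The mature sequences of RefSeq on GRCm38.p6 follow, with the seed (bases 2 to 8) in capitals.
mmu-miR-1306-5p: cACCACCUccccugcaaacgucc
mmu-miR-1306-3p: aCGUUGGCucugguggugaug
mmu-miR-5113: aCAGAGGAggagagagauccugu
The 3 mature sequences have different seeds. Both hairpin genes had 0 counts in all 3 libraries, which says nothing of their level, because reads in exons shared by more than 1 gene were left out of the counts and these hairpins lie wholly inside host exons.

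The 4 Argonaute transcripts did not move together. Ago3 was depleted, Ago1 was slightly lower, and Ago2, which encodes the Argonaute that can slice its target, and Ago4 did not pass the test. Ago1 lies beside Ago3 and Ago4 on the minus strand of chromosome 4, while Ago2 is on chromosome 15.

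Ago3 (chromosome 4, 126326994 to 126431670) was counted 542 times in the input, against 249 in the first and 283 in the second IP library. Both IP libraries were close to each other and far below the input. The decrease was 2.09-fold, or −1.07 ± 0.17 (SE) in log2 units (edgeR, adjusted p = 1.64e-06). The 95% interval, from −1.42 to −0.71, spans the 2-fold threshold, and without IP replicate 1 the value was −0.99, which is under 2-fold. The merged exons of Ago3 had the lowest GC content of the members, 41.6%, at the 8.61 percentile of tested genes, and with the trend of the ratio on GC removed its value was −0.51.

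Ago1 (126435012 to 126468707) was counted 3396 times in the input, against 2848 and 3285 in the first and second IP library. The first IP library lay below the input and the second close to it. The fitted log2 ratio was −0.19 ± 0.081 (SE; edgeR, adjusted p = 0.0455), and the DESeq2 test gave an adjusted p of 0.205, above the threshold. Ago1 passed in 5 of the 12 alternatives with a test, and without IP replicate 1 its value was −0.10.

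Ago2 (chromosome 15, 73101625 to 73184947, minus strand) was counted 2415 times in the input, against 2631 and 2672 in the first and second IP library. The IP libraries agreed closely, but the fitted log2 ratio, 0.09 ± 0.083 (SE), did not pass the edgeR test (adjusted p = 0.345) and had an interval from −0.07 to 0.26. It passed in 2 of the 12 alternatives with a test, total count scaling (0.19) and per-length scaling (0.24). Ago4 (126489487 to 126533586) had the fewest counts of the members, 68 in the input and 92 and 89 in IP. Its log2 ratio, 0.37 ± 0.37 (SE), did not pass either (edgeR, adjusted p = 0.412) and had an interval from −0.38 to 1.13, which holds both 0 and a 2-fold increase.

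On counts the ratio of Ago1 to Ago3 was 6.27 in the input, against 11.4 and 11.6 in IP replicates 1 and 2. Per base of merged exon it was 16.8 in the input, against 30.7 and 31.2, and on both bases it rose 1.84-fold. The ratio of Ago2 to Ago1 was 0.659 in the input and 0.856 and 0.754 in IP. Ago1 was thus above Ago2 in each library, and the IP libraries differed from each other by about as much as the lower of them differed from the input. Of the TPM of the 4 Argonaute genes (a level per length, counts divided by merged exon length and scaled to the library), the share of Ago3 was 3.43% in the input, against 1.70% and 1.78% in IP.

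The GW182 transcripts differed among themselves too. Tnrc6c rose, Tnrc6b was slightly lower and Tnrc6a did not pass the test. Tnrc6c (chromosome 11, 117653703 to 117763439, plus strand) was counted 3163 times in the input, against 6365 in the first and 6602 in the second IP library. Both IP libraries had about double the counts of the input. The increase was 1.99-fold, just outside the threshold, or 1.00 ± 0.069 (SE) in log2 units (edgeR, adjusted p = 1.74e-15). Its merged exons had the highest GC content of the members, 55.0%, and with the GC trend removed its value was 0.70, whereas total count scaling gave 1.09 and a call of enriched.

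Tnrc6b (chromosome 15, 80711313 to 80941086, plus strand) was counted 1657 times in the input, against 1439 and 1411 in the first and second IP library. Both IP libraries were below the input by a similar amount. The fitted log2 ratio was −0.26 ± 0.10 (SE; edgeR, adjusted p = 0.0339), but the DESeq2 test did not pass (adjusted p = 0.164), and Tnrc6b passed in 5 of the 12 alternatives with a test. Tnrc6a (chromosome 7, 123031101 to 123195296, plus strand) was counted 2897 times in the input, against 3374 and 3071 in the first and second IP library, and its log2 ratio, 0.11 ± 0.081 (SE), did not pass (edgeR, adjusted p = 0.237) and had an interval from −0.05 to 0.28. It did pass in 4 of the 12 alternatives with a test, among them removal of the GC trend, at 0.30 (edgeR, adjusted p = 0.00175), and per-length scaling, at 0.26 (adjusted p = 0.00363).

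Per base of merged exon, the ratio of Tnrc6c to Tnrc6b was 3.40 in the input, against 7.87 and 8.32 in IP replicates 1 and 2. This increase of 2.38-fold was the largest of the 6 within-library ratios computed. The ratio of Tnrc6c to Tnrc6a was 1.44 in the input and 2.49 and 2.84 in IP, an increase of 1.84-fold. The share of Tnrc6c in the TPM of the GW182 genes was 50.3% in the input, against 65.4% and 67.9% in IP, while Tnrc6b went from 14.8% to 8.32% and 8.16%.

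**Figure D2:**
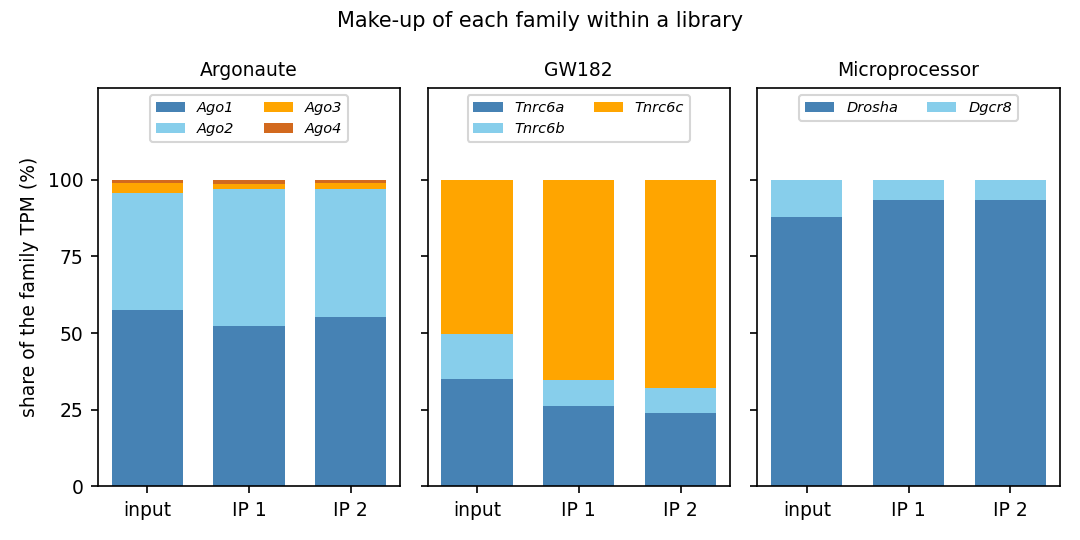
Share of the TPM of each family (%) contributed by each gene in the input and in IP replicates 1 and 2, for the Argonaute, GW182 and Microprocessor genes. Tnrc6c takes up a larger part of the GW182 bar in both IP libraries (65.4% and 67.9%) than in the input (50.3%), and Ago3 and Dgcr8 a smaller part of theirs.

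In level, the members spanned a wide range, and these bulk libraries cannot tell fewer cells with a transcript from less RNA per cell. In TPM, Drosha was the highest in each library, at 108 in the input and 135 and 146 in IP. In the input it was followed by Ago1 at 25.4, Tnrc6c at 17.9, Ago2 at 16.7, Dgcr8 at 14.9, Dicer1 at 14.6 and Tnrc6a at 12.4. Tnrc6b at 5.26, Ago3 at 1.51 and Ago4 at 0.400 were the lowest, and the 1 input library gives no spread by which to separate neighbours in this order.

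In IP the order was different. Tnrc6c, at 39.1 and 39.8 TPM in IP replicates 1 and 2, and Dicer1, at 30.1 and 30.3, stood above Ago1, at 23.2 and 26.2. Ago2 followed at 19.8 in both, then Tnrc6a at 15.7 and 14.0, and Dgcr8 at 9.31 and 10.4. Tnrc6b had 4.97 and 4.78, Ago3 0.755 and 0.841, and Ago4 0.589 and 0.558. No neighbours in this order overlapped between the IP libraries. A level per length depends on the length used. The merged exons of Ago3 come to 19982 bases and those of Dgcr8 to 8788, whereas the transcripts used for the motif search have 7635 and 4226, and levels on these transcripts were not computed.

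**Figure D3:**
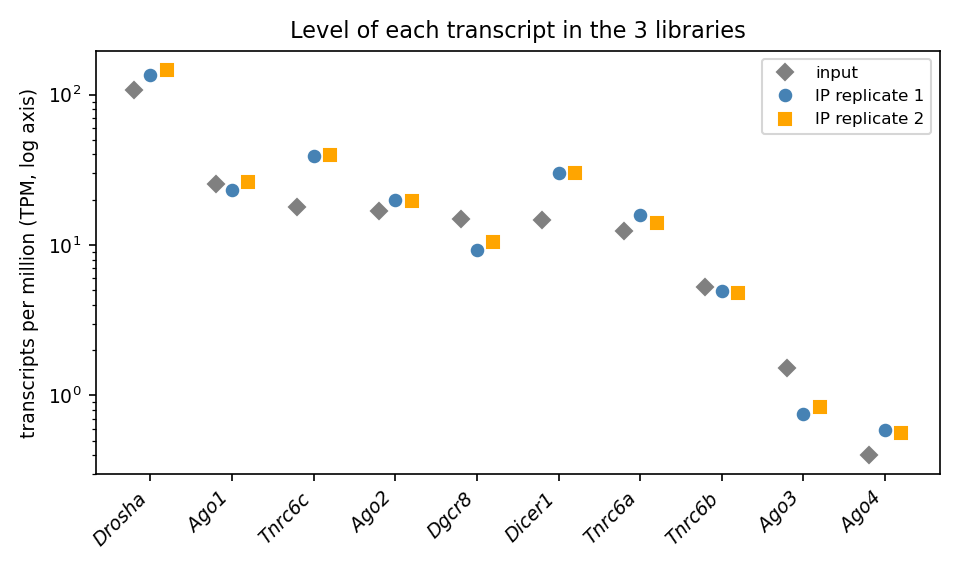
Level of each member in TPM (log axis) in the input (diamonds), IP replicate 1 (circles) and IP replicate 2 (squares), ordered by the input. Dicer1 and Tnrc6c rise past Ago1 in IP, while Dgcr8 falls from 14.9 to 9.31 and 10.4.

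The members were then compared in sequence features that the choice of genes did not use. The transcripts carried between 2 matches to GGACT, in Dgcr8, and 23, in Tnrc6b. Per kilobase the density was highest in Tnrc6c, at 1.72 (15 matches), and was 1.33 in Tnrc6b, 1.32 in Dicer1, 1.25 in Ago1, 1.12 in Ago2 and 0.917 in Ago3. It was 0.656 in Drosha, 0.473 in Dgcr8, 0.472 in Tnrc6a and 0.460 in Ago4, and the median of the 15011 genes was 1.07. Over all of them 91.5% held at least 1 match, so that its presence sets no member apart.

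Motif density and the ratio were not ordered alike throughout. Tnrc6c was both the densest and the highest in IP, and Dgcr8 was sparse and lower in IP, whereas Tnrc6b, among the densest, was lower in IP. Across the 10 members Pearson's r between density and log2 fold change was 0.40 and Spearman's rho 0.16, compared with 0.14 and 0.15 across all 15011 genes. Without Tnrc6c and Ago4, the members farthest from the median density, r was 0.29 and rho 0.048. These points are genes of the same 3 libraries and not independent replicates, and the values are given as a description.

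Most members had long 3′ UTRs. The longest was that of Tnrc6b, at 11610 bases, followed by Ago2 at 5283, Ago3 at 4796 and Ago1 at 4377. That of Drosha, at 169 bases, was the shortest, against a median of 938 over the 15011 genes. Across the members the length of the 3′ UTR had an r of −0.20 and a rho of −0.35 with the log2 fold change. Without Tnrc6b and Drosha, the members farthest from the median length, r was −0.094 and rho −0.24. The values over all genes were −0.028 and 0.0038.

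The ratio varied with GC content over all genes, and the correlation among the members was small without Ago3 and Tnrc6c. Pearson's r with the log2 fold change was 0.61 and rho 0.41 across the 10 members, and 0.27 and 0.31 across 19554 genes. Ago3 and Tnrc6c lie at the ends of the range of GC content and of the range of ratios. Across the 8 other members r was −0.033 and rho −0.17. Leaving out the extremes of both ranges would by itself lower r, so these values do not show whether the ratios depend on GC content. Dicer1 (47.2% GC) and Dgcr8 (47.3% GC) had nearly the same GC content and opposite ratios. With the GC trend removed they were at 1.03 and −0.62, and the median of the members moved from 0.10 to 0.00038. The part of GC content in the ratios was not tested.

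**Figure D4:**
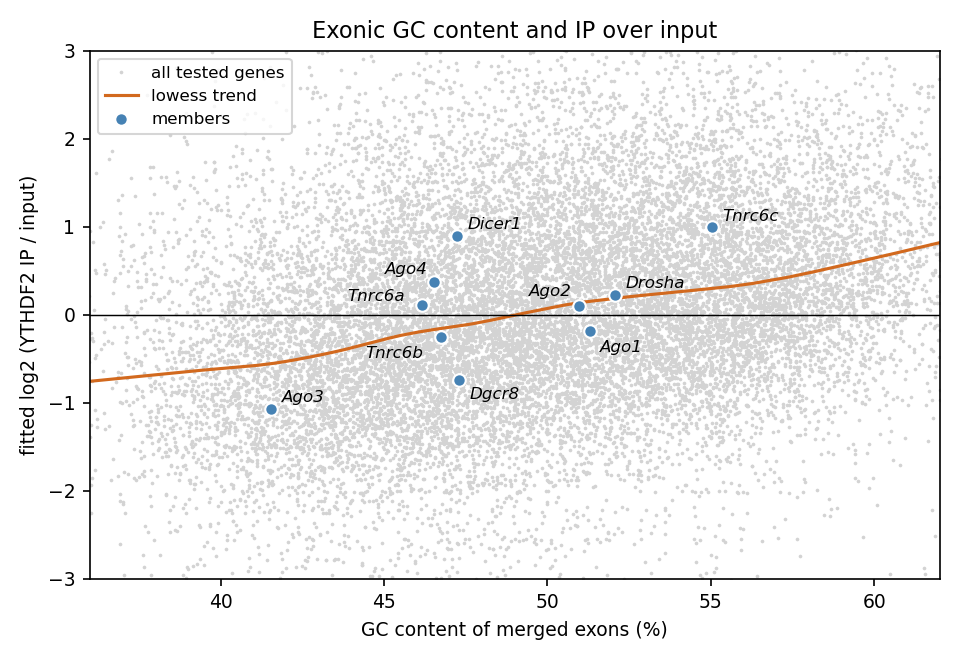
Fitted log2 ratio of IP to input against the GC content of merged exons (%) for tested genes (grey points; the axes leave out the extremes), with the lowess trend (line) and the 10 members (blue). Ago3 (41.6% GC) and Tnrc6c (55.0% GC) lie at the ends, while Dicer1 and Dgcr8 lie on opposite sides of the trend at nearly the same GC content.

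Another 53 genes of the pathway, in 6 lists by role, were read in the same fit. Of these, 1 was enriched, against 15.1% of all tested genes, and 17 were depleted, or 32.1%, against 13.1%. Under a fixed dispersion of 0.1, 7 were depleted. At any fold change 8 were higher, against 28.5% of all tested genes, 41 were lower, against 29.0%, and 4 did not pass, and the median log2 fold change was −0.67. The median of the members, 0.10, was above that pooled median but below that of the DICER partners, 0.39, and these differences were not tested.

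Around the Microprocessor, 5 of 9 cofactors were depleted, or 55.6%, against 13.1% of all tested genes, with a median of −1.16. Hnrnpa1, an RNA-binding protein that helps process some hairpins, had 47544 counts in the input, against 15634 and 17028 in IP, a log2 fold change of −1.58. Safb2, which aids the cutting of clustered hairpins, was at 0.42, with 5729, 7443 and 8367 counts. Xpo5, the exporter of hairpin precursors, was depleted, with 3033 counts in the input, against 1352 and 1423 in IP and a log2 fold change of −1.17, 1 of 2 depleted among 3 export and import genes.

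Of the 3 partners of DICER1, 2 were higher in IP, against 28.5% of all tested genes, and 1 was lower, against 29.0%. Past 2-fold were 0, against 15.1% enriched and 13.1% depleted among all tested genes. Adar, which edits double-stranded RNA, was at 0.39. Tarbp2, which encodes a double-stranded RNA-binding partner, had 2469 counts in the input, against 4351 and 4347 in IP, with a log2 fold change of 0.78 ± 0.076 (SE). Prkra, the related partner, had 327 counts and then 235 and 137, so that its IP libraries lay far apart, or −0.85 ± 0.24 (SE) in log2 units (edgeR, adjusted p = 0.00255).

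Of 10 genes for loading of Argonaute, 2 were depleted, or 20.0%, against 13.1% of all tested genes, and 8 were lower at any fold change, against 29.0%. The depleted genes include the chaperone Hsp90aa1, at −2.11, with 108270 counts in the input, against 25821 and 25592 in IP. Of 19 cofactors of silencing, 4 were depleted, or 21.1%, and 14 were lower at any fold change, the lowest being Ankrd52, a subunit of the phosphatase that resets Argonaute, at −2.27, with 821, 173 and 178 counts. Wtip, a LIM domain protein of the Ajuba family, was the only companion gene enriched, with 3022 counts in the input, against 9832 and 10463 in IP, a 3.27-fold increase, and it lost this call with the GC trend removed. Limd1, of the same family, was at 0.73, whereas Ajuba itself was lower in IP, at −0.20 (edgeR, adjusted p = 0.00785). Ddx6, the helicase that joins silencing to CCR4-NOT, was at 0.68.

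Of 9 genes for tailing and decay of microRNAs, 4 were depleted, or 44.4%, against 13.1% of all tested genes. Tut4, which adds uridines to let-7 precursors, had 2933 counts in the input, against 687 and 693 in IP, a log2 fold change of −2.13, and the nuclease Xrn2 was at −1.58. Lin28a, which blocks let-7 maturation, had 3034 counts in the input, against 2822 and 3023 in IP, and its log2 ratio of −0.09 ± 0.079 (SE) did not pass (edgeR, adjusted p = 0.324).

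**Figure D5:**
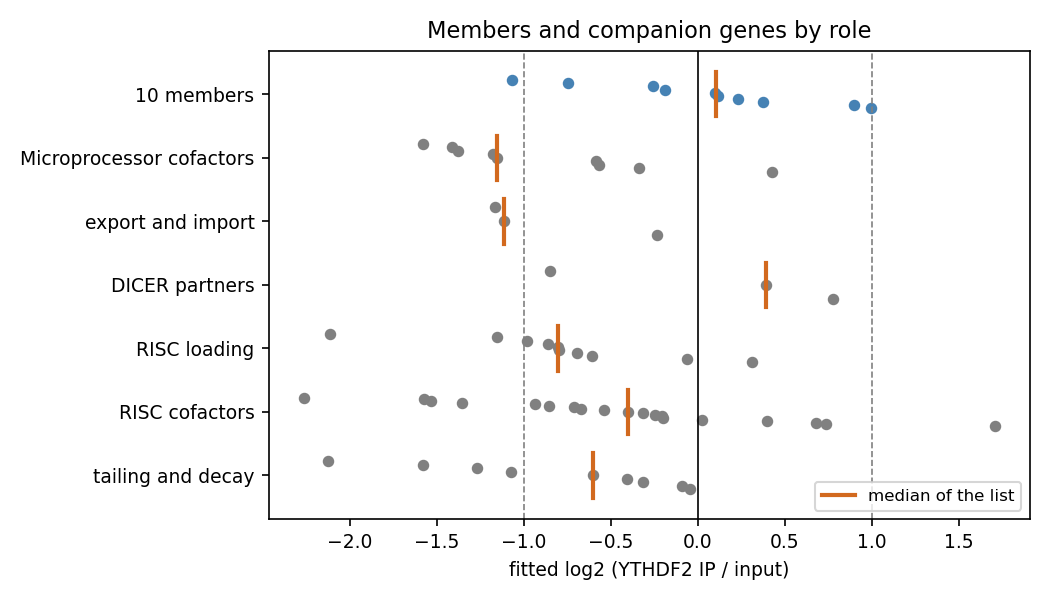
Fitted log2 ratio of IP to input for the 10 members and for the companion genes of 6 roles (each point is 1 gene; the vertical bar is the median of the list; dashed lines mark 2-fold). The medians are 0.10 for the members and −1.16 for Microprocessor cofactors, and the DICER partners, at 0.39, are the only companion list with a median above 0.

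Counts summed to between 35259827 and 36986994 per library, and the floor of 3 counts was 0.0811 to 0.0851 CPM (counts scaled by library total). All 10 ESC markers and all 8 2C markers were detected in each library, with summed levels of 12367 and 1698 TPM in the input, 11664 and 2887 in IP replicate 1, and 11760 and 2865 in IP replicate 2. Fibroblast markers summed to 32.7 TPM in the input and 18.0 and 19.3 in IP, with Col3a1 and Dcn at 0 in all libraries. Markers of endoderm summed to 4.59 TPM in the input, against 8.56 and 5.35 in IP, those of mesoderm to 15.9, against 33.7 and 31.6, and those of neurectoderm to 6.84, against 20.8 and 18.9. Mitochondrial genes took 1.67% of the counts in the input and 0.0362% and 0.0365% in IP, and 11 nuclear-retained RNAs summed to 172 TPM in the input and 130 and 129 in IP. The part of these differences in the ratios of the members was not tested, except that without mitochondrial genes the counts of enriched and depleted members were unchanged.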

How the data were processed

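The authors deposited raw counts of reads per gene. Per the labels, the methods and the file header, reads were trimmed with fastp 0.19.4, aligned to mm10 with HISAT2 2.2.1 and counted over RefSeq exons by featureCounts 2.0.3 in paired mode without a strand setting. Both mates were probably counted, since 61.4% to 64.7% of counts from 1 to 100 were even, so 1 fragment can add 2 counts. The p-values and SEs of the main fit use these counts, and the fit was repeated with halved counts. Reads over 2 genes were left out. The counts were not normalized, and exon lengths in the table were recomputed on main chromosomes, because 2057 genes, Dgcr8 among them, are annotated on more than 1 sequence.

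In R 4.3.3, edgeR 4.0.16 filtered genes (filterByExpr, leaving 19601) and scaled them by TMM (factors 0.957, 1.02 and 1.02). Dispersions were estimated with the robust option (common value 0.00538). IP was compared with input by glmQLFit and glmQLFTest, with 1 residual degree of freedom, from the 2 IP libraries. These steps draw the dispersion of each gene toward values shared over all tested genes, so its p-value rests on more than its own counts. The wording fixed for this test did not say whether the quasi-likelihood step was robust too. It was first run so, then with the default, which is reported because it is the literal reading, and the robust step is given as an alternative chosen after seeing the data. SEs and 95% intervals were derived from the F statistic, and ratios of single libraries used a pseudocount of 0.5. The alternatives were other scalings, DESeq2 1.42.0, no filter, a fixed dispersion of 0.1, halved counts, trends on GC, length and exon density removed (lowess span 0.3), no mitochondrial genes and each IP library left out. The IP libraries were treated as separate samples by their titles. Their counts were not identical (chi-square per gene 5.38, a value that counting of both mates raises), which does not show separate cultures.

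The members and lists were chosen with earlier results of these data known. All 10 members were to be named, and of 53 companion genes the 5 highest, the 5 lowest and the best known partners (Xpo5, Tarbp2, Prkra, Ddx6 and Lin28a). Trmt2a, Ajuba, Adar and the hairpin genes were named after their values were seen. Marker lists for ESC, 2C, fibroblast and germ layers served to check the cell type. Motifs were searched in 1 curated RefSeq transcript per gene, that with the longest coding sequence.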

Additional observations from a re-analysis of the deposited data

How the results depend on the processing

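The counts of calls, the median and the value of each member were recomputed under 14 alternatives, of which the robust quasi-likelihood step was chosen after seeing the data. Leaving out each IP library for the within-library ratios was also added then, and all 6 ratios kept their direction. The robust step left the members at 0 enriched and 1 depleted and the companion genes at 1 and 17, with 2936 enriched and 2543 depleted genes in all, compared with 2966 and 2570. The number of enriched members was 1 (Tnrc6c) under total count scaling at 1.09, without the filter at 1.02 and with the length trend removed at 1.05. It was 1 (Dicer1, at 1.03) with the GC trend removed, and 2 under per-length scaling, with Tnrc6c at 1.14 and Dicer1 at 1.05. Ago3 lost its call, leaving 0 depleted members, under total count scaling (−0.97), per-length scaling (−0.92), the length trend (−0.97), the GC trend (−0.51) and the fixed dispersion of 0.1 (adjusted p = 0.172). Under that dispersion no member passed at any fold, and companion genes fell from 17 to 7 depleted. Among all genes it gave 1577 enriched and 1531 depleted. With counts halved, 0 members were enriched and 1 was depleted, with 2827 and 2555 among all genes. Adjusted p (edgeR) was then 8.02e-07 for Dicer1, 3.04e-07 for Tnrc6c, 7.35e-05 for Dgcr8 and 0.000244 for Ago3. It was 0.00907 for Drosha and 0.0440 for Tnrc6b, and Ago1, at 0.0868, no longer passed. With each IP library left out in turn, between 0 and 1 members were past 2-fold upward and between 0 and 1 downward; without IP replicate 1, Tnrc6c was at 1.01 and Ago3 at −0.99. Wtip lost its call with the GC trend removed, leaving 0 companion genes enriched.

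The median of the members moved from 0.10 to 0.20 under total count scaling, 0.25 under per-length scaling, 0.16 with the length trend removed, 0.065 without IP replicate 1, 0.14 without IP replicate 2, 0.00038 with the GC trend removed and −0.031 with the exon density trend removed. The first 2 of these settings raised the median of all genes too, by 0.096 under total count and 0.15 under per-length scaling. At any fold change Drosha no longer passed with the GC trend removed (0.043). Ago2 changed sign to −0.042 with the GC trend and −0.027 with the exon density trend removed, and Tnrc6a to −0.035 with the latter. The causes were not tested beyond the construction of each setting. The 8 other members kept their direction in each alternative. No paired analysis was possible because there is only 1 input library, whose label has no replicate number. With 1 input, variation between inputs was not measured.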
